A study of Mus musculus with 5 samples.

Results

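The interferon-inducible gene families are groups of genes that interferons switch on in most mouse cells. The list held 49 gene symbols: 4 sensors of foreign or misplaced nucleic acid, 5 regulators, 4 Ifit genes, 5 Oas genes, 8 other antiviral effectors, 2 chemokines, 8 guanylate-binding proteins (GBPs), 7 immunity-related GTPases (IRGs) and 6 genes of the Ifi200 family. Members were the rows of the deposited gene count table that carry these symbols. The table held 48 of the 49 among its 19198 genes, and 46 of the 48 passed the filter on low counts that left 14352 genes to test. Bst2 was not analysed here, and Dhx58 and Isg15 had too few counts to be tested.

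RNA was measured in the whole small intestine of 5 mice, without a statement of which stretch of it was taken. All 5 mice carried floxed alleles of mAChR4, the M4 muscarinic acetylcholine receptor encoded by Chrm4, and all were gavaged with 10 mg/kg RU486 (mifepristone) each day for 4 days. The 2 Cre-positive mice also carried Math1Cre*PR, a Cre recombinase driven by Math1, a transcription factor gene of the secretory lineage, and held inactive until RU486 binds its progesterone receptor domain. The 3 Cre-negative mice were floxed littermates without Cre. No mouse with active Cre and unfloxed alleles was included, so effects of Cre and of the deletion cannot be told apart. The labels give no age, sex or strain.

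Interferons are secreted proteins that signal through cell-surface receptors, the kinases Jak1, Jak2 and Tyk2, and STAT transcription factors. Type I and type III interferons lead to a transcription factor complex that includes Stat2 and Irf9 and binds the interferon-stimulated response element (ISRE), and genes that answer interferon gamma often carry a gamma-activated site (GAS). In the gut epithelium, type III interferon is known for defence against enteric viruses, and interferon gamma for inducing the GTPases that act on vacuoles holding intracellular microbes.

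The 2 kinds of site were looked for in the promoters of the members, since the families are defined by their response to interferon. RefSeq promoter windows on GRCm38.p6, from 250 bases before to 50 bases after the start of transcription, were matched by symbol for 35 of the 48 members. The letters GAAANNGAAA, read on both strands as the core of an ISRE, occurred in the windows of 24 of the 35 members (68.6%) and in 3.44% of all 32851 windows. Some members have several windows, and counted by window the matches were in 25 of 41 member windows. The letters TTCNNNGAA, a GAS core that reads the same on both strands, occurred in 9 of the 35 members (25.7%), or 9 of the 41 member windows. They occurred in 8.3% of all windows. An ISRE match was present in 5 of 6 IRG genes with a window, 4 of 4 GBP genes, 4 of 5 Ifi200 genes, 3 of 4 Ifit genes and 2 of 4 Oas genes. A GAS match was present in 4 of those 6 IRG genes, 2 of 4 GBP genes and 0 of 5 Ifi200 genes.

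The windows of 4 IRG genes are printed because they share an arrangement that was rare elsewhere. In Igtp, Irgm2, Tgtp1 and Tgtp2 the GAS letters were followed after 2 bases by the ISRE letters on the gene's strand, a run of 21 bases. That run occurred in 5 of the 32851 windows (0.0152%), and the fifth belonged to Gm12185, another gene of the IRG family. Exons of Gm12185 and Tgtp1 overlap on the same strand, and whether their windows also overlap was not examined. On GRCm38 the stretches lie at chr11:58199481-58199555 (plus strand) for Igtp, chr11:58214872-58214952 (plus) for Irgm2, chr11:48992284-48992364 (minus) for Tgtp1 and chr11:49064243-49064323 (minus) for Tgtp2. All 4 lie outside annotated exons. Capitals mark the GAS match and then the ISRE match, and the letters read 5′ to 3′ on the strand of the gene.

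Igtp: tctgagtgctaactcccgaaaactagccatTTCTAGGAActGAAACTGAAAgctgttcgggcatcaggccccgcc
Irgm2: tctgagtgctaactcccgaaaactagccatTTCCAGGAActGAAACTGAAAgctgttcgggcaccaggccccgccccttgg
Tgtp1: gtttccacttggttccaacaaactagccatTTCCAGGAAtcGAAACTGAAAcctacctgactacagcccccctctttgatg
Tgtp2: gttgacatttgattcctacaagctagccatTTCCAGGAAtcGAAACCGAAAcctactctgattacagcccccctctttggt

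Igtp and Irgm2 are neighbours on the same strand and Tgtp1 and Tgtp2 are near-identical copies, so the 4 stretches do not stand for 4 unrelated sequences. Irgm1, Gbp7 and Ifi205 are printed next because their values are described in full further on. Irgm1 (chr11:48871428-48871457, minus strand, in an annotated Irgm1 exon) held 2 overlapping ISRE matches and no GAS match. Gbp7 (chr3:142530200-142530322, plus strand, upstream of the gene) held 2 GAS matches followed by 1 ISRE match on the opposite strand. Ifi205 (chr1:174031850-174031919, minus strand, upstream of the gene) held an ISRE match whose first base lies 134 bases before the start. A second ISRE match of its window, on the opposite strand, begins at base 24 counted from the start and is not printed. Capitals again mark the matches.

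Irgm1: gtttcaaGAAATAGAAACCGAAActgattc
Gbp7: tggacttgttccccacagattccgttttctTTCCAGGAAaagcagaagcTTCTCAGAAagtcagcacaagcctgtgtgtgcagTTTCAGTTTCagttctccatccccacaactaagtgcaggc
Ifi205: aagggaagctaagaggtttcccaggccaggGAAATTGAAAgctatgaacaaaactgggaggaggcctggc

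The window of Ifi47 held neither set of letters. A match is a description of letters and does not show that a factor binds there.

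**Figure D1:**
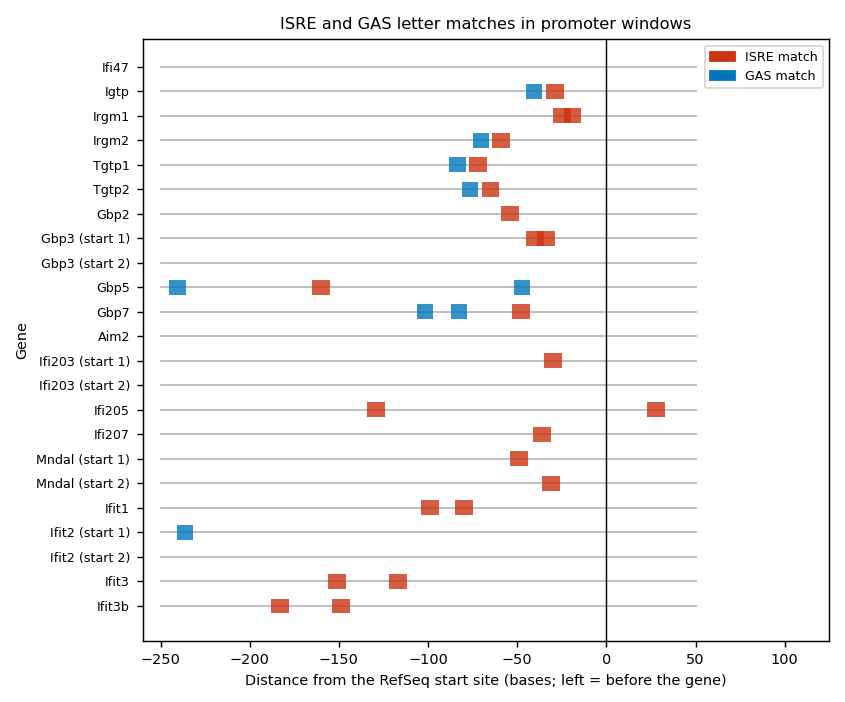
Positions of ISRE letters and GAS letters in the RefSeq promoter windows of the IRG, GBP, Ifi200 and Ifit genes, as distance in bases from the start of transcription. Each line is a window, with or without a match, and a gene with several starts has several lines. The 4 IRG genes Igtp, Irgm2, Tgtp1 and Tgtp2 carry a GAS match directly before an ISRE match, at slightly different distances from the start.

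The 5 libraries held 4681119 to 6618204 estimated counts. Members took 0.113%, 0.117% and 0.115% of the counts in Cre-negative mice 1, 2 and 3, and 0.171% and 0.125% in Cre-positive mice 1 and 2. Chrm4 itself had 4, 20 and 4 counts in the Cre-negative mice and 13 and 5 in the Cre-positive mice, so the groups overlapped and the gene did not check the labels. Enterocyte markers (10 genes) summed to 10300, 6003 and 14370 CPM (the share of a library's counts scaled to a common size, after adjustment by the trimmed mean of M-values) in the Cre-negative mice and to 4476 and 13606 CPM in the Cre-positive mice. Cre-positive mouse 1 was the lowest, with Lct, the lactase gene, at 3.48 CPM against 15.8 to 881 CPM elsewhere, and Fabp1 at 0. Alpi, Vil1, Fabp2, Apoa1, Apoa4 and Sis were also lowest in that mouse. Epcam and Krt20 were not: at 505 and 537 CPM there, both exceeded every Cre-negative mouse (448 to 500 and 478 to 529 CPM). Vil1, at 603 to 1066 CPM, was present in every library. Markers of immune cells were not level across libraries. Summed over 9 genes, B and plasma cell markers came to 11.3, 11.1 and 26.9 CPM in the Cre-negative mice, 428 CPM in Cre-positive mouse 1 and 18.5 CPM in Cre-positive mouse 2. All 9 were highest in Cre-positive mouse 1, and Cd79a was at 0 in the other 4 libraries. T and innate lymphoid cell markers (10 genes) summed to 6.86 to 8.15 CPM in the Cre-negative mice and to 79.3 and 15.9 CPM in the Cre-positive mice, and all 10 were highest in Cre-positive mouse 1. Macrophage and dendritic cell markers (9 genes) summed to 30.8 to 95.1 CPM in the Cre-negative mice and to 168 and 30.2 CPM in the Cre-positive mice. Lyz2 alone gave 106 of the 168 CPM. Of the 9 genes 8 were highest in Cre-positive mouse 1, but C1qa was close there (13.5 CPM) to Cre-negative mouse 1 (13.2 CPM). Adgre1 was highest in Cre-negative mouse 1, at 8.39 CPM against 7.55 CPM in Cre-positive mouse 1. Smooth muscle markers (8 genes) reached 1871 CPM in Cre-negative mouse 1 and 585 to 884 CPM in the other 4 libraries. These are bulk samples, in which fewer cells of a type and less RNA per cell cannot be told apart.

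No member passed the test between Cre-positive and Cre-negative mice, and the IRG genes were the family with the highest median difference. By edgeR's quasi-likelihood test at an adjusted p of 0.05, 0 of the 46 members were called, against 0% of all genes tested. The lowest adjusted p of any gene was 0.977. DESeq2 called 1 member, Ifi205, which was lower in the Cre-positive mice (adjusted p = 0.00569), where 0.132% of all genes were called. limma-voom called 0 members. At an unadjusted edgeR p under 0.05, 7 members were higher (Gbp7, Gbp8, Iigp1, Irgm1, Irgm2, Ifi47 and Tgtp2) and 2 were lower (Ifi204 and Ifi205). Of all genes, 1.6% were higher and 1.78% were lower at that p. With 3 mice against 2 the spread of each group rests on very few animals.

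Read library by library, the groups did not overlap in 10 of the 46 members (21.7%), beside 18% of all genes. In 7 of the 46 members both Cre-positive mice lay above all 3 Cre-negative mice, a share of 15.2% beside 7.89% of all genes: Ifih1, Oasl1, Gbp7, Irgm1, Irgm2, Ifi47 and Tgtp2. In 3 members, Gbp5, Ifi204 and Ifi205, both lay below, a share of 6.52% beside 10.2% of all genes. A further 17 members (37%, beside 19.8% of all genes) were above every Cre-negative mouse in Cre-positive mouse 1 only. The 17 were Zbp1, Irf7, Irf9, Usp18, Ifit2, Oas2, Rsad2, Cxcl9, Gbp4, Gbp6, Gbp8, Gbp9, Iigp1, Tgtp1, Ifi203, Mndal and Aim2. The summed immune markers were highest in the same mouse, and their part in these values was not tested. The log2 fold change, Cre-positive over Cre-negative, was positive in 33 members and negative in 13, with a median of 0.35 beside -0.04 over all genes. The positive share was 71.7% of the members beside 45.5% of all genes. Without Cre-positive mouse 1 it was positive in 24 members (52.2%), near the 48.9% of all genes in that setting. Leaving out 1 mouse or another turned the sign in 19 of the 46 members (41.3%), beside 52.4% of all genes.

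**Figure D2:**
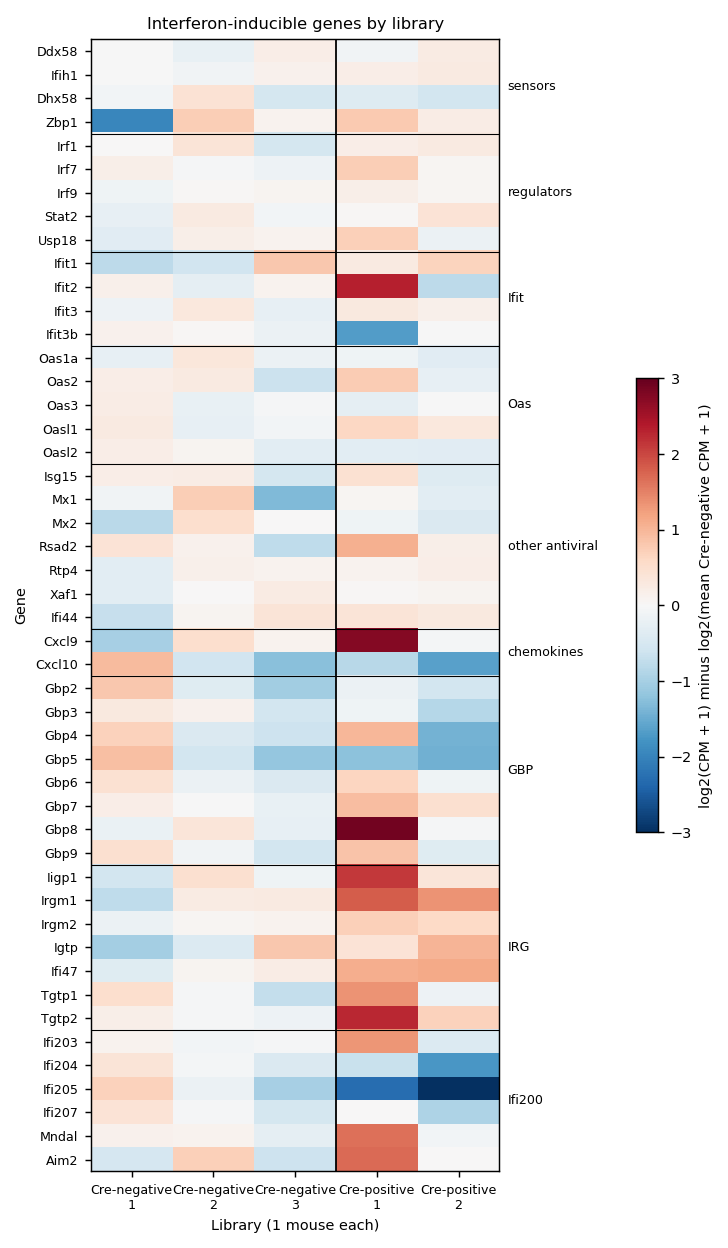
Heat map of 48 members (rows, by family) in 5 libraries (columns): log2(CPM + 1) minus the log2 of the mean Cre-negative CPM + 1. The IRG rows are above the Cre-negative mean in Cre-positive mouse 1 without exception, while Ifi204 and Ifi205 are below it in both Cre-positive mice.

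The immunity-related GTPases disable vacuoles made by intracellular microbes, and all 7 measured members had a positive log2 fold change, with a median of 1.14 and a range of 0.67 to 1.80. None passed the adjusted threshold. At an unadjusted edgeR p under 0.05, 5 of 7 were higher, beside 1.6% of all genes. In 4 of 7 both Cre-positive mice lay above all Cre-negative mice, beside 7.89% of all genes. Both counts include Tgtp2, whose split from its near-identical copy Tgtp1 is uncertain, and the groups of their summed counts overlapped. Summed over the 7 genes, IRG transcripts came to 156, 205 and 243 CPM in the Cre-negative mice and to 475 and 372 CPM in the Cre-positive mice. Both Cre-positive totals lay above every Cre-negative total, and the ratio of the group means (424 ± 72.9 and 201 ± 43.9 CPM, SD) was 2.11. The summed markers of T and innate lymphoid cells were also above every Cre-negative library in both Cre-positive mice, and their part in the IRG values was not tested. In Cre-positive mouse 2, Gzmb alone gave 7.31 of the 15.9 CPM. Cd3e, Cd8a, Trac and Klrd1 were also above every Cre-negative mouse there, while Cd3g, Cd4, Thy1, Nkg7 and Gzma were not. Without Cre-positive mouse 1 the family median was 0.79 and 6 of 7 values were positive, the exception being Tgtp1 at -0.11. Of the 7 genes, 6 lie on chromosome 11 and Iigp1 lies on chromosome 18.

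Irgm1 encodes a regulatory IRG that sits on host membranes and restrains the effector IRGs, and its gene lies at chr11:48861968-48871683 on the minus strand. It stood at 17.5, 36.1 and 36.8 CPM in the Cre-negative mice and at 109 and 78.3 CPM in the Cre-positive mice. Both Cre-positive values were more than 2 times the highest Cre-negative value. Its log2 fold change was 1.63 ± 0.35 (SE), with an unadjusted p of 0.0023 and an adjusted p of 0.977 by edgeR's quasi-likelihood test, and DESeq2 gave an adjusted p of 0.0586. Leaving out each mouse in turn moved the value between 1.39 and 1.88.

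Irgm2, a second regulatory IRG at chr11:58199618-58222782, stood at 55.4, 64.5 and 67.3 CPM in the Cre-negative mice and at 104 and 94.5 CPM in the Cre-positive mice. The groups did not overlap and the spread within each was small. Its log2 fold change was 0.67 ± 0.20 (edgeR unadjusted p = 0.012, adjusted p = 0.977). Igtp, the third regulatory member, begins just before Irgm2 in the annotation, and an exon of each overlaps the other. It stood at 20.6, 32.1 and 76.4 CPM in the Cre-negative mice and at 57.7 and 88.4 CPM in the Cre-positive mice. Cre-negative mouse 3 was above Cre-positive mouse 1, so the Igtp groups overlapped, with a log2 fold change of 0.76 ± 0.52.

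Ifi47, an IRG of the effector type at chr11:49076587-49096974, was almost level between the 2 Cre-positive mice. It stood at 23.0, 31.5 and 35.4 CPM in the Cre-negative mice and at 65.2 and 67.5 CPM in the Cre-positive mice. All Cre-negative values were below all Cre-positive values. The log2 fold change was 1.14 ± 0.24 (edgeR unadjusted p = 0.00211, adjusted p = 0.977), DESeq2 gave an adjusted p of 0.144, and without any 1 mouse it ranged from 1.01 to 1.32. Exons of Ifi47 overlap those of Olfr56 on the same strand and Gm12188 on the other, and the labels do not say whether counting used strand.

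Tgtp1 and Tgtp2, effector IRGs that load onto parasite vacuoles, share most of their sequence. Of the 50-base stretches in Tgtp2 exons, 85.8% also occur in Tgtp1, and the deposited values of both genes were not whole numbers in all 5 libraries, so their split is uncertain. Tgtp2 stood at 9.11, 7.78 and 7.17 CPM in the Cre-negative mice and at 42.6 and 13.5 CPM in the Cre-positive mice. Cre-positive mouse 1 was far above the other Cre-positive mouse, and both were above the Cre-negative mice. The Tgtp2 log2 fold change was 1.80 ± 0.47 (edgeR unadjusted p = 0.00638, adjusted p = 0.977). It was 0.79 without Cre-positive mouse 1 and 2.45 without Cre-positive mouse 2, and each of these fits leaves 1 Cre-positive mouse. Tgtp1 stood at 21.8, 14.8 and 8.80 CPM in the Cre-negative mice and at 39.9 and 13.5 CPM in the Cre-positive mice, so its groups overlapped, and its log2 fold change of 0.82 ± 0.53 was -0.11 without Cre-positive mouse 1. Added together, the 2 copies had 129, 122 and 98 counts in the Cre-negative mice and 426 and 174 counts in the Cre-positive mice. The sum gave 30.9, 22.6 and 16.0 CPM against 82.4 and 27.0 CPM, with a log2 fold change of 1.24 ± 0.49 (edgeR unadjusted p = 0.0382, adjusted p = 0.977). For the sum, Cre-positive mouse 2 lay between Cre-negative mice 1 and 2.

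Iigp1, the best-studied effector IRG, stood at 8.15, 17.8 and 11.2 CPM in the Cre-negative mice and at 57.1 and 16.3 CPM in the Cre-positive mice. Cre-positive mouse 2 was inside the Cre-negative range. The log2 fold change of 1.56 ± 0.55 (edgeR unadjusted p = 0.0262, adjusted p = 0.977) was 0.42 without Cre-positive mouse 1.

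**Figure D3:**
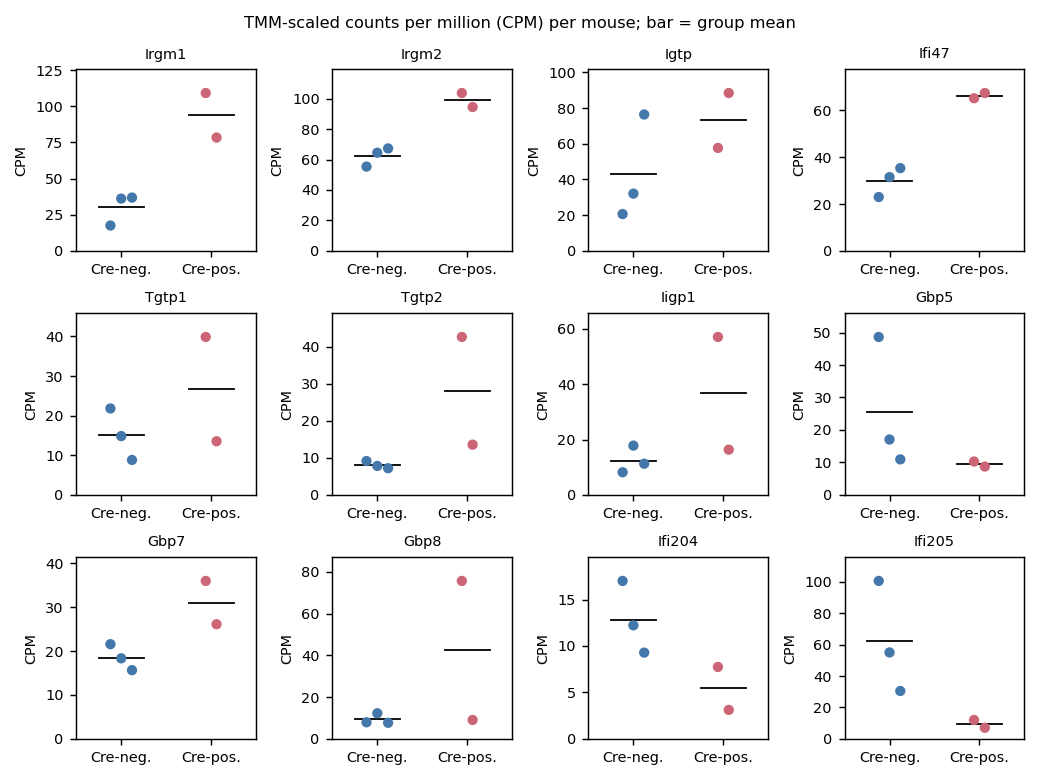
CPM of 12 genes in each of the 5 mice, 1 point per mouse, in the order mouse 1 to 3 and mouse 1 to 2 from the left, with a line at the group mean. Irgm1, Irgm2 and Ifi47 are separated by group, Gbp8 and Iigp1 are high in Cre-positive mouse 1 only, and Ifi204 and Ifi205 are low in both Cre-positive mice.

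The guanylate-binding proteins are larger GTPases that coat bacteria and parasite vacuoles, and the signs of their members were mixed. Of the 8 measured members, 5 had a positive and 3 a negative log2 fold change, with a median of 0.29, and none passed the adjusted threshold. The GBP total was 385, 201 and 142 CPM in the Cre-negative mice and 349 and 178 CPM in the Cre-positive mice, and the groups overlapped. The median was -0.43 without Cre-positive mouse 1 and 0.85 without Cre-positive mouse 2. Gbp2, Gbp3, Gbp5 and Gbp7 lie together on chromosome 3 (142493978 to 142638008), and Gbp4, Gbp6, Gbp8 and Gbp9 on chromosome 5 (105014150 to 105293698).

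Gbp7 was the GBP whose groups separated upwards. It stood at 21.6, 18.3 and 15.6 CPM in the Cre-negative mice and at 36.0 and 26.1 CPM in the Cre-positive mice, a log2 fold change of 0.75 ± 0.27 (edgeR unadjusted p = 0.0263, adjusted p = 0.977). Gbp5, a GBP linked to inflammasome activation, stood at 48.6, 17.0 and 10.9 CPM in the Cre-negative mice and at 10.3 and 8.71 CPM in the Cre-positive mice. Its Cre-positive values were below all Cre-negative values, but Cre-negative mouse 3 came within 1 CPM of Cre-positive mouse 1. The Gbp5 log2 fold change was -1.42 ± 0.64 (edgeR unadjusted p = 0.0623, adjusted p = 0.977), and -0.53 without Cre-negative mouse 1.

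Gbp8 stood at 7.91, 12.2 and 7.66 CPM in the Cre-negative mice and at 75.7 and 9.02 CPM in the Cre-positive mice. Only Cre-positive mouse 1 was outside the Cre-negative range. The log2 fold change of 2.18 ± 0.78 (edgeR unadjusted p = 0.029, adjusted p = 0.977) was -0.011 without that mouse and 3.06 without Cre-positive mouse 2. Each of these fits leaves 1 Cre-positive mouse. Gbp2, the GBP with the highest CPM, stood at 197, 86.7 and 53.8 CPM in the Cre-negative mice and at 98.9 and 76.0 CPM in the Cre-positive mice, and its groups overlapped. Its log2 fold change of -0.36 ± 0.52 was 0.34 without Cre-negative mouse 1. Cre-negative mouse 1, which had the highest Gbp2 and Gbp5, also had the highest smooth muscle and fibroblast marker totals, whose part was not tested. Gbp3, Gbp4, Gbp6 and Gbp9 had log2 fold changes of -0.57 to 0.41 and overlapping groups. The values of Gbp4, Gbp6 and Gbp9 were negative without Cre-positive mouse 1 (-1.53, -0.078 and -0.35). Gbp4, Gbp8 and Gbp9 overlap in exons on 1 strand, and 70.7% of the 50-base stretches of Gbp6 occur in another gene.

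The Ifi200 family, whose proteins bind DNA or join inflammasomes, was split. Ifi205 and Ifi204 were lower in both Cre-positive mice, while Ifi203, Mndal and Aim2 were higher in Cre-positive mouse 1 only. The 6 members, all on chromosome 1 between 173350879 and 174031810, had 3 positive and 3 negative log2 fold changes and a median of 0.09. The median was -1.05 without Cre-positive mouse 1 and 0.80 without Cre-positive mouse 2. The family total was 134, 87.8 and 52.0 CPM in the Cre-negative mice and 69.5 and 23.2 CPM in the Cre-positive mice.

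Ifi205 (chr1:174011998-174031810, minus strand) had the most negative log2 fold change of the 46 members. It stood at 101, 55.0 and 30.5 CPM in the Cre-negative mice and at 12 and 6.99 CPM in the Cre-positive mice. The lowest Cre-negative value was more than 2 times the higher Cre-positive value, though the Cre-negative mice themselves spread over more than 3 times. The log2 fold change was -2.71 ± 0.56, with an unadjusted p of 0.00202 and an adjusted p of 0.977 by edgeR. It kept its sign without any 1 mouse, from -3.10 to -2.15. Smooth muscle markers were highest in the same Cre-negative mouse as Ifi205 and then in Cre-negative mouse 2, and their part was not tested. Of the 50-base stretches in Ifi205 exons 18.5% occur in Ifi211, and its deposited values were not whole in any library.

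Ifi204, whose product is a sensor of microbial DNA, stood at 17.0, 12.2 and 9.29 CPM in the Cre-negative mice and at 7.74 and 3.11 CPM in the Cre-positive mice. The groups did not overlap, and the log2 fold change was -1.25 ± 0.48 (edgeR unadjusted p = 0.0337, adjusted p = 0.977). It was -1.99 without Cre-positive mouse 1 and -0.68 without Cre-positive mouse 2. Mndal stood at 2.88, 2.78 and 1.95 CPM in the Cre-negative mice and at 10.1 and 2.33 CPM in the Cre-positive mice, a log2 fold change of 1.28 ± 0.63 (edgeR unadjusted p = 0.0822, adjusted p = 0.977) that was -0.077 without Cre-positive mouse 1. Aim2, the DNA sensor that starts an inflammasome, stood at 3.83, 10.2 and 3.42 CPM in the Cre-negative mice and at 21.3 and 5.91 CPM in the Cre-positive mice. In Ifi203 the values were 6.47, 5.56 and 5.70 CPM against 16.3 and 4.20 CPM, and the log2 fold change of 0.78 ± 0.55 was -0.45 without Cre-positive mouse 1. In all 3 genes Cre-positive mouse 2 was within or below the Cre-negative range. Ifi207 stayed between 0.62 and 3.12 CPM in all 5 libraries.

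**Figure D4:**
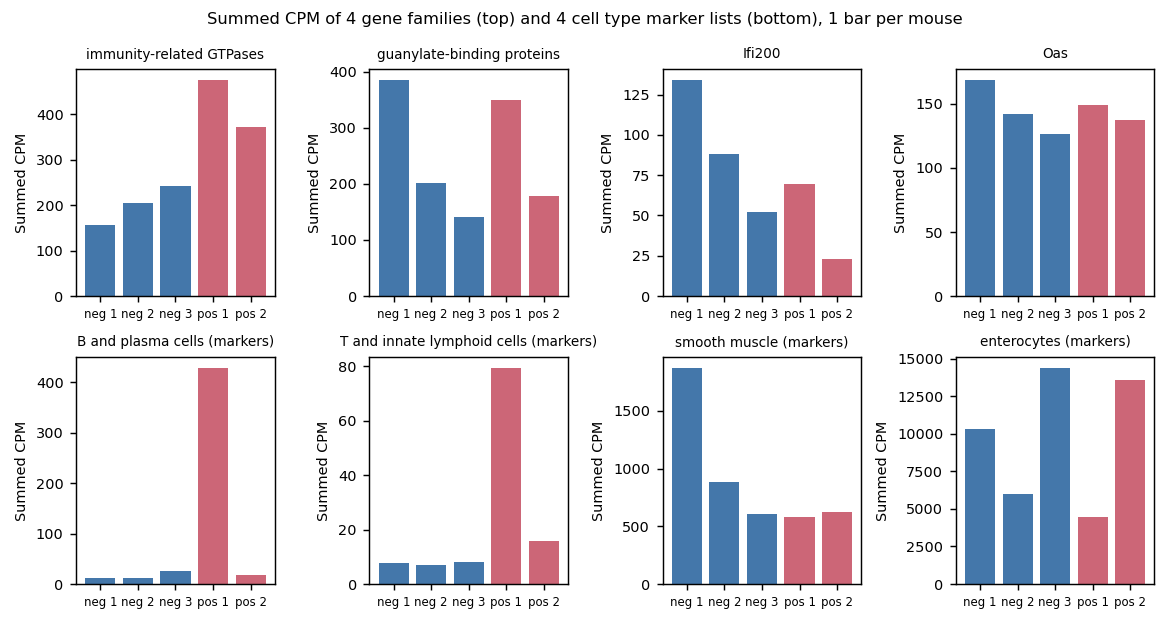
Summed CPM per mouse for the IRG, GBP, Ifi200 and Oas families (upper panels) and for markers of B and plasma cells, T and innate lymphoid cells, smooth muscle and enterocytes (lower panels). The IRG total is 372 CPM or more in both Cre-positive mice and 243 CPM or less in all Cre-negative mice, while the B and plasma cell total is high in Cre-positive mouse 1 alone.

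The 4 Ifit genes, which bind viral RNA, had 3 positive and 1 negative log2 fold change and a median of 0.41, and no member separated the groups. Ifit1 stood at 29.7, 34.5 and 92.2 CPM in the Cre-negative mice and at 63.5 and 83.5 CPM in the Cre-positive mice, a log2 fold change of 0.49 ± 0.49 (edgeR unadjusted p = 0.351, adjusted p = 0.977). Ifit2 stood at 3.59, 2.41 and 3.42 CPM in the Cre-negative mice and at 19.7 and 1.40 CPM in the Cre-positive mice. The 2 Cre-positive mice lay on opposite sides of the Cre-negative range, and the Ifit2 log2 fold change of 1.73 ± 0.90 (edgeR unadjusted p = 0.0975, adjusted p = 0.977) was -1.12 without Cre-positive mouse 1. Ifit3b had 16, 19 and 18 counts in the Cre-negative mice and 2 and 22 in the Cre-positive mice, with a log2 fold change of -0.79 ± 0.75 (edgeR unadjusted p = 0.322, adjusted p = 0.977) that was 0.036 without Cre-positive mouse 1. Its copy Ifit3 shares 51.2% of its 50-base stretches with it, and their sum, at 22, 32 and 26 counts against 14 and 35, gave -0.32 ± 0.44.

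The Oas genes make or relate to enzymes that sense double-stranded RNA and activate RNase L. Of 5 members, 2 had a positive and 3 a negative log2 fold change, with a median of -0.14, and the family total was 168, 142 and 126 CPM in the Cre-negative mice and 149 and 137 CPM in the Cre-positive mice. Oasl1 stood at 46.5, 32.1 and 36.2 CPM in the Cre-negative mice and at 59.2 and 47.7 CPM in the Cre-positive mice, just clear of each other, with a log2 fold change of 0.48 ± 0.25 (edgeR unadjusted p = 0.0899, adjusted p = 0.977). Oasl2, its neighbour on chromosome 5, stood at 84.1, 77.5 and 58.7 CPM in the Cre-negative mice and at 59.0 and 57.8 CPM in the Cre-positive mice, a log2 fold change of -0.33 ± 0.23 (edgeR unadjusted p = 0.197, adjusted p = 0.977). The 2 neighbours thus had opposite signs, each with overlapping or barely separated groups. Oas1a, Oas2 and Oas3 had log2 fold changes of -0.29 ± 0.39 (edgeR unadjusted p = 0.481, adjusted p = 0.977), 0.45 ± 0.61 and -0.14 ± 0.25, and without Cre-positive mouse 1 the last 2 turned to -0.30 and 0.022.

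Among the other antiviral effectors, 4 of the 6 tested had a positive log2 fold change, the median was 0.11, and none separated the groups. Rsad2, which makes an antiviral nucleotide, stood at 7.43, 5.93 and 2.77 CPM in the Cre-negative mice and at 12.4 and 6.22 CPM in the Cre-positive mice, a log2 fold change of 0.80 ± 0.50 (edgeR unadjusted p = 0.155, adjusted p = 0.977). The Rsad2 value was 0.26 without Cre-positive mouse 1, and without Cre-positive mouse 2 it was 1.26. Xaf1, the member of this group with the highest CPM, stood at 11.5, 14.6 and 17.4 CPM in the Cre-negative mice and at 14.9 and 15.4 CPM in the Cre-positive mice. Ifi44, Rtp4, Mx1 and Mx2 had log2 fold changes of 0.37 ± 0.39, 0.16 ± 0.30, -0.16 ± 0.80 and -0.43 ± 0.65, each within 1 SE of 0. The edgeR unadjusted p was 0.38 for Ifi44 and 0.532 for Mx2 (adjusted p = 0.977 for both). Isg15, a ubiquitin-like modifier, had 3 to 10 counts in every library and was too low to test.

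The chemokines, which recruit activated T cells, had log2 fold changes of opposite sign. Cxcl9 had 0, 10 and 7 counts in the Cre-negative mice and 64 and 6 counts in the Cre-positive mice. At 12.4 CPM (95% exact Poisson interval 9.54 to 15.8, counting error only), Cre-positive mouse 1 was alone above the others, and the log2 fold change of 2.62 ± 1.17 (edgeR unadjusted p = 0.0607, adjusted p = 0.977) was -0.13 without it. Cxcl10 stood at 21.6, 6.86 and 3.91 CPM in the Cre-negative mice and at 5.61 and 2.80 CPM in the Cre-positive mice, a log2 fold change of -1.34 ± 0.77 (edgeR unadjusted p = 0.125, adjusted p = 0.977). Cre-negative mouse 1 was the high library for Cxcl10, and without it the value was -0.34.

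Among the sensors, Ifih1, a cytosolic detector of long double-stranded RNA, stood at 84.8, 79.1 and 93.7 CPM in the Cre-negative mice and at 98.3 and 103 CPM in the Cre-positive mice. The groups were separate by a small step, with a log2 fold change of 0.23 ± 0.19 (edgeR unadjusted p = 0.272, adjusted p = 0.977). Zbp1, a sensor of Z-form nucleic acid that can start cell death, stood at 8.63, 61.0 and 38.9 CPM in the Cre-negative mice and at 63.1 and 42.4 CPM in the Cre-positive mice. Cre-negative mouse 1 was far below the other 4 for Zbp1, and the log2 fold change was 0.54 ± 0.68 (edgeR unadjusted p = 0.46, adjusted p = 0.977). Without that mouse it was 0.11. Ddx58, which encodes RIG-I, had a log2 fold change of 0.085 ± 0.23 (edgeR unadjusted p = 0.727, adjusted p = 0.981), and Dhx58 stood at 1.09 to 3.15 CPM and was not tested.

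The 5 regulators all had positive log2 fold changes, from 0.12 to 0.44 with a median of 0.24, and in none were the groups separate. Without Cre-positive mouse 1 the median was 0.092 and 4 of 5 were positive, with Usp18 at -0.17. Irf7, the amplifier of type I interferon, stood at 35.9, 30.9 and 28.7 CPM in the Cre-negative mice and at 53.4 and 33.0 CPM in the Cre-positive mice, a log2 fold change of 0.44 ± 0.27 (edgeR unadjusted p = 0.151, adjusted p = 0.977). The Irf7 value was 0.086 without Cre-positive mouse 1. Irf1 stood at 84.1, 109 and 57.8 CPM in the Cre-negative mice and at 96.6 and 101 CPM in the Cre-positive mice, with a log2 fold change of 0.24 ± 0.29. Stat2, Irf9 and Usp18, the last of which restrains the type I receptor, had values of 0.24 ± 0.27, 0.12 ± 0.22 and 0.36 ± 0.39. The edgeR unadjusted p was 0.398 for Stat2 and 0.376 for Usp18 (adjusted p = 0.977 for both).

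**Figure D5:**
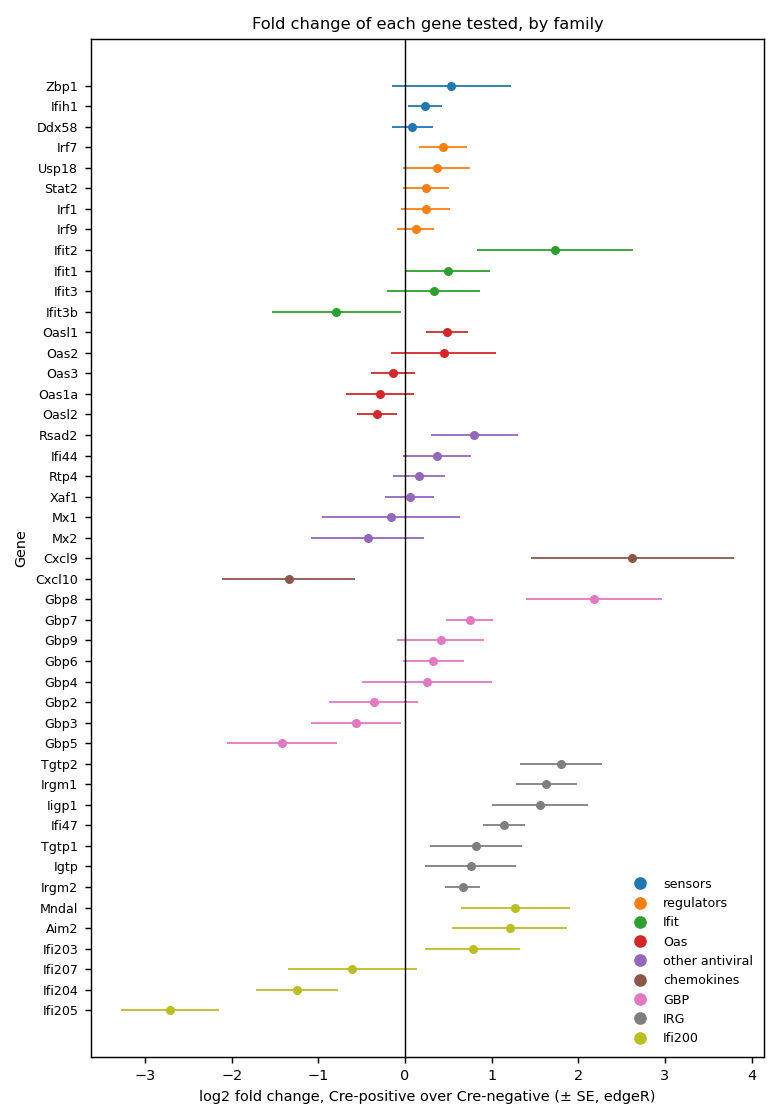
Log2 fold change, Cre-positive over Cre-negative, with its standard error for the 46 tested members, ordered by family. All 7 IRG points are above 0, Ifi205 is the lowest point at -2.71 and Cxcl9 the highest at 2.62, with 0 members past the adjusted threshold of 0.05.

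Genes of the pathway outside the member list were read from the same fit, from lists chosen with earlier results of these data known. None was called in any list by edgeR. Of 20 interferon genes listed, 1 was in the table, Ifnk, at 1.35 to 5.37 CPM, with a log2 fold change of -0.44 ± 0.57. Ifng, the interferon gamma gene, was not analysed here. Among the 6 receptor chains, 2 had a positive and 4 a negative log2 fold change, and the median was -0.11, while without Cre-positive mouse 1 the values were positive in 5 of 6. Ifnar1 and Ifnar2, which form the type I receptor, had log2 fold changes of 0.12 ± 0.24 and -0.43 ± 0.31. Ifngr1 and Ifngr2, the interferon gamma receptor, had 0.03 ± 0.22 and -0.17 ± 0.27, and Ifnlr1 and Il10rb, the type III receptor, had -0.04 ± 0.32 and -0.24 ± 0.27.

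Jak1, a kinase bound to the interferon receptors, stood at 112, 98.2 and 102 CPM in the Cre-negative mice and at 147 and 116 CPM in the Cre-positive mice, a log2 fold change of 0.33 ± 0.21. Cre-positive mouse 1 was the highest library and Cre-positive mouse 2 was just above the Cre-negative mice.

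Negative regulators of the pathway (7 genes) had a median log2 fold change of 0.04, with Irf2 at -0.37 ± 0.23 and Ptpn6 at 0.67 ± 0.47. The Ptpn6 groups overlapped, and without Cre-positive mouse 1 its value was -0.12, while that of Irf2 was -0.17. Genes that induce interferon (12 tested) had a median of 0.15, with 7 positive, Tlr3 at 0.37 ± 0.24 and Irf8 at 0.51 ± 0.33. Further interferon targets (27 tested) had 16 positive values and a median of 0.11. The share positive over all genes was 45.5%. Of these targets, Ddx60, a helicase, stood at 0.78 ± 0.35, and Nlrc5, the activator of MHC class I genes, at 1.13 ± 0.51. The Ddx60 groups did not overlap and the Nlrc5 groups did. Without Cre-positive mouse 1 the values were 0.64 for Ddx60 and 0.66 for Nlrc5.

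Other members of the same families, not on the member list, were read in the same way. Of 30 listed, 19 were in the table and 11 were tested, and 10 of the 11 had a positive log2 fold change, with a median of 0.96. Over all genes 45.5% were positive, with a median of -0.04. Without Cre-positive mouse 1, the library in which 7 of the 11 were highest, 6 were positive and the median was 0.38. In that setting 48.9% of all genes were positive. The IRG relative 9930111J21Rik1 stood at 12.2, 15.2 and 14.5 CPM in the Cre-negative mice and at 39.9 and 19.0 CPM in the Cre-positive mice, a log2 fold change of 1.07 ± 0.35 (edgeR unadjusted p = 0.0178, adjusted p = 0.977) that was 0.47 without Cre-positive mouse 1. Gm5431, another IRG-like gene, stood at 62.3, 117 and 120 CPM in the Cre-negative mice and at 152 and 239 CPM in the Cre-positive mice, a log2 fold change of 0.97 ± 0.34 (edgeR unadjusted p = 0.0256, adjusted p = 0.977). In both genes the Cre-positive values lay above the Cre-negative values, and in Gm5431 Cre-positive mouse 2 was the higher of its group. Such separation occurred in 3 of the 11 tested, beside 7.89% of all genes. The deposited values of both genes were not whole in all 5 libraries. In 9930111J21Rik2, also on the list, the groups overlapped, at 12.5, 5.37 and 4.07 CPM against 19.2 and 3.89 CPM.

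Levels between genes were compared per length, as mean CPM per kb of annotated exon sequence. In the Cre-negative mice Gbp2 was highest of the members at 44.7 ± 29.8 CPM per kb (SD), followed by Igtp at 21.3 ± 14.6, Irf1 at 21 ± 6.43, Ifit1 at 19.6 ± 13.1 and Irgm2 at 16.9 ± 1.69. Given these spreads, the order from Gbp2 to Irgm2 did not separate neighbouring genes. In the Cre-positive mice Igtp stood at 36.1 ± 10.8 CPM per kb, Gbp2 at 34.8 ± 6.43, Ifit1 at 27.7 ± 5.32, Irgm2 at 26.9 ± 1.77 and Ifi47 at 26.8 ± 0.643. Thus 3 of the 5 most abundant members per kb in the Cre-positive mice were IRG genes on chromosome 11. Igtp and Irgm2 were also among the 5 most abundant in the Cre-negative mice. The spreads did not separate neighbouring genes among the Cre-positive 5 either, and Irf1 came next at 24.8 ± 0.713 CPM per kb. Ifi205 stood at 14.9 ± 8.53 CPM per kb in the Cre-negative mice and at 2.27 ± 0.847 in the Cre-positive mice.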

How the data were processed

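Total RNA with rRNA depleted was sequenced, per the labels' protocols. The authors deposited a table of estimated counts by gene symbol with a column for every animal. Partek was used and mm10 was the build, per the submitters' processing notes, and no source used here names the aligner, its version or the way reads were counted. Of the deposited counts, 19.6% to 21.7% per library were not whole (by more than 0.005), and they were rounded. The smallest row total was 10, so genes under that total are not listed. There were 0 rows with no gene and 0 columns of no sample.

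Replicates are separate mice, each numbered in the labels. The mouse numbers 1 to 3 used here follow accession order and pair nothing. Genes were filtered with filterByExpr (minimum count 10), scaled by TMM and tested in edgeR 4.0.16 (R 4.3.3) by the quasi-likelihood test with Benjamini-Hochberg adjustment over all genes tested, at 0.05. The fit had 3 residual degrees of freedom and a common biological coefficient of variation of 33.1%. Standard errors were the absolute log2 fold change over the square root of F. The code was tested on simulated data. Alternatives were DESeq2 1.42.0, limma-voom (limma 3.58.1), other scalings, other filters, another threshold and leaving out each mouse. No depth beyond 4681119 to 6618204 counts per library was available, and Poisson intervals cover counting error only.

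The members, gene lists and tests were chosen with earlier results of these data known. Full statistics are given for the 3 members of each family with the smallest unadjusted p, and library values also for the member with the highest mean CPM. For each pathway list the 2 genes with the smallest p and every receptor are named, except 1 gene that is not reported here. Other genes named with values were chosen after their values were seen. Gene coordinates, exon lengths and shared 50-base stretches come from GENCODE M21 on GRCm38 (mm10), and promoter windows from RefSeq on GRCm38.p6.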

Additional observations from a re-analysis of the deposited data

How the results depend on the processing

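No paired analysis was possible because the replicate numbers only name the mice and pair none of them. The count of genes called was 0 by edgeR and 19 by DESeq2 (12 higher, 7 lower), and 0 to 58 with 1 mouse left out, the 58 without Cre-positive mouse 2. Members called were 0 by edgeR, 1 by DESeq2, and 0 to 2 with 1 mouse left out. Members whose groups do not overlap were 10 (21.7%, beside 18% of all genes), and 14 to 29 with 1 mouse left out (30.4% to 63%, beside 28% to 60% of all genes), where fewer mice make separation easier. With the filter of at least 5 CPM in 2 libraries the chemokine median was -1.30, since Cxcl9 was dropped. With 1 mouse left out, family medians ran from 0.092 to 0.42 for regulators, 0.15 to 0.71 for Ifit, -1.70 to 1.35 for chemokines, -0.43 to 0.85 for GBPs, 0.79 to 1.5 for IRGs, -1.05 to 0.80 for Ifi200, -0.30 to 0.0088 for Oas, -0.0050 to 0.33 for other antiviral effectors and 0.11 to 0.34 for sensors. List medians ran from -0.25 to 0.11 for receptors, -0.17 to 0.25 for kinases and STATs, -0.12 to 0.39 for inhibitors, 0.041 to 0.31 for genes inducing interferon and 0.38 to 1.46 for further family members. Log2 ratios of total CPM ran from -1.66 to 0.66 for chemokines, -1.98 to -0.39 for Ifi200, -0.45 to 0.62 for GBPs and -0.12 to 0.095 for Oas. The sign turned with 1 mouse left out in 19 of 46 members, and the cause was not tested: Ddx58 (-0.073 and, without Cre-negative mouse 2, -0.017, up to 0.29), Usp18 (-0.17 to 0.81), Ifit2 (-1.12 to 2.69), Ifit3b (-3.03 to 0.036), Oas2 (-0.30 to 1.01), Oas3 (-0.25 to 0.022), Mx1 (-0.63 to 0.73), Mx2 (-0.75 to 0.060), Xaf1 (-0.058 to 0.25), Cxcl9 (-0.13 to 3.56), Gbp2 (-0.64 to 0.34), Gbp4 (-1.53 to 1.09), Gbp6 (-0.078 to 0.71), Gbp8 (-0.011 to 3.06), Gbp9 (-0.35 to 0.98), Tgtp1 (-0.11 to 1.45), Ifi203 (-0.45 to 1.5), Ifi207 (-1.65 to 0.093) and Mndal (-0.077 to 2.03). Of the log2 fold changes of the named members under all alternatives, 295 kept direction and side of the threshold, 9 turned sign and 3 crossed the threshold. Across the scalings the median of all genes lay between -0.04 and -0.01. Depth limits low genes: Isg15, with 3 to 10 counts per library, could not be tested.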
